A study of Mus musculus with 2 samples.

Results

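The cytosolic ribosome is built from a small and a large subunit, and each subunit is made of ribosomal RNA and a fixed set of ribosomal proteins. The genes of these proteins, named Rps for the small and Rpl for the large subunit, are among the most highly expressed of any cell. Many of their mRNAs open with a run of pyrimidines that ties their translation to growth signalling, and some of the genes have a paralog that is used in only some tissues. The members described here are the 91 protein-coding genes whose symbol is Rpl or Rps followed by a digit, or Rpsa, Rplp0, Rplp1 or Rplp2, with the Rps6k kinases left out. They were chosen by name only, from 32287 genes in the table, of which 21699 are protein coding. Of the members, 57 carry an Rpl name and 34 an Rps name. The name rule also took in Rps19bp1, which encodes a protein that binds Rps19 and is not part of the ribosome, and 6 genes with copy names, such as Rpl10-ps3 and Rps27rt. It left out genes such as Fau and Rack1, which encode ribosomal proteins under other names.

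The cells came from primary cultures of the lateral ventricular walls of newborn mice (P0-P2), in which astroglial progenitors turn into multiciliated ependymal cells, the cells that line the brain ventricles. The design is 1 group of 2 libraries, replicate 1 from C57BL/6N and replicate 2 from C57BL/6J mice, both sampled 2 days after serum was withdrawn. Cells were tagged through a surface protein before capture, and the labels name no transgene and no drug. Contaminating neurons and oligodendrocytes had been shaken off before serum withdrawal, so the neuroblasts, oligodendrocytes and other non-ependymal cells described here are those that were left. Each substrain is 1 library, so that substrain, culture and run cannot be told apart. The labels do not say how many animals or flasks went into a library. The p-values measure the spread left between the 2 libraries, pooled over populations, once each gene's average library difference is taken out. They do not cover the spread between animals or between cultures of a substrain.

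The table holds 12028 cells and 173510950 UMIs (unique molecular identifiers, each standing for 1 captured mRNA) in replicate 1, and 4373 cells and 70611931 UMIs in replicate 2. The submitters' cell table names 14 populations and 5 cell cycle classes, and the labels do not say how cells were assigned to them. The lineage runs from progenitors I and II, together called non-cycling progenitors, and cycling progenitors, through early, mid and late deuterosomal cells, the stages that amplify centrioles, to early MCCs and MCCs (multiciliated cells). Marker lists were highest in the populations of their name, except that cycling markers in replicate 2 were higher in OPCs (oligodendrocyte precursor cells) than in cycling progenitors, and that ciliary markers there were higher in early MCCs than in MCCs. The summed level of 5 microglial markers was 8385 and 10303 CPM (UMIs scaled to a fixed total per library and population) in microglia of replicates 1 and 2, and at most 15.4 CPM elsewhere. RNA of other cells was seen in microglia of replicate 1, where 7 astroglial progenitor markers summed to 661 CPM and 5 ciliary markers to 248 CPM, against 50.5 and 21.7 CPM in replicate 2. OPCs of replicate 1 held 119 CPM of the ciliary markers, against 2.04 CPM in replicate 2, and 1018 CPM of 5 oligodendrocyte markers, against 145 CPM. Neuroblasts of replicate 1 held 1147 CPM of the astroglial progenitor markers, against 529 CPM in replicate 2. They also held 699 CPM of 5 oligodendrocyte precursor markers, against 226 CPM. Oligodendrocytes held 1677 and 1629 CPM of these precursor markers, and OPCs 1777 and 2546 CPM. The part of such RNA in the results on microglia, OPCs, oligodendrocytes and neuroblasts was not tested. The libraries shared 13 cell barcodes.

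Ribosomal protein genes gave 8.17% of all UMIs in replicate 1 and 8.60% in replicate 2. Their UMIs were spread over many members, and the 10 with the most UMIs held 23.1% of them. Rpl13, of the large subunit, gave the most, with 2358 CPM in replicate 1 and 2540 CPM in replicate 2. It was followed by Rplp1 (1885 and 2160 CPM), Rpl23 (1935 and 1892 CPM), Rplp0 (1861 and 2039 CPM) and Rps24 (1878 and 1852 CPM). Rplp0, Rplp1 and Rplp2 form the stalk of the large subunit, which recruits elongation factors. At the other end, 4 members had fewer than 100 UMIs in all and were below the low count filter, which left 87 members for the tests. They were Rpl39l with 30 UMIs, Rpl3l with 27, Rpl10l with 16 and Rpl36-ps4 with 5.

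Promoter sequences were searched for letter patterns around the start of transcription. RefSeq windows (GRCm38.p6) from 250 bases before to 50 bases after the start were at hand for 66 members, in 78 windows. The core CCGGAAG, bound by GABP and other ETS factors, was in 34.6% of the members' windows on either strand, against 8.86% of all 32851 windows. The core AAGATGG, bound by YY1, was in 15.4% against 6.34%, and the TATA box letters TATAAA were in 8.97% against 13.6%. A run of 6 pyrimidines that opens with C, lying between 5 bases before and 11 bases after the start on the gene's strand, was in 35.9% of the members' windows and in 10.2% of all. These are matches of letters and not measured binding. The windows of Rps27l, the member that stood farthest from the others in the lineage, and Rpl13, the most abundant, are printed 5′ to 3′ on the plus strand, with CCGGAAG in capitals. The Rps27l window is chr9:66945836-66946135 and holds that core after the start, on the gene's own strand. The Rpl13 window is chr8:123102100-123102399 and holds none of these letter patterns.
Rps27l: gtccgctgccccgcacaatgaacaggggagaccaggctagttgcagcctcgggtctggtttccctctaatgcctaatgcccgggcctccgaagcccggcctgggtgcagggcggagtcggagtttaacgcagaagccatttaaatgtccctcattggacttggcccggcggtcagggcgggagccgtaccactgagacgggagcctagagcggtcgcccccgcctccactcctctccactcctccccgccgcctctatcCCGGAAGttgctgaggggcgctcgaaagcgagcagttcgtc
Rpl13: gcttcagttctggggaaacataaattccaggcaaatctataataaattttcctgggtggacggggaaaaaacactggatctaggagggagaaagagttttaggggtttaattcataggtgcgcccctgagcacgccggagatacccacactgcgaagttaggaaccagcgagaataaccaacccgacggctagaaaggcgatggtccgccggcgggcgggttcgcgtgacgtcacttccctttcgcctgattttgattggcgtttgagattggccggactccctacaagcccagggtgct

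The share of UMIs that went to ribosomal protein genes was lower in the later stages of the multiciliated lineage and higher in the named populations outside it. It was 10.0% and 10.1% in progenitors I of replicates 1 and 2, 9.49% and 9.45% in progenitors II, and 9.51% and 9.66% in cycling progenitors. It was 8.26% and 8.59% in early deuterosomal cells and 5.74% and 5.46% in mid deuterosomal cells, the lowest of all populations in both libraries. Late deuterosomal cells had 6.58% and 6.00%, early MCCs 6.81% and 6.04%, and MCCs 6.15% and 5.97%. The drop between early and mid deuterosomal cells was larger than the spread between libraries, whereas the values of late deuterosomal cells, early MCCs and MCCs overlapped. Within each library MCCs were the lowest of these and early MCCs the highest. The share was 15.2% and 17.2% in OPCs, 14.8% and 16.6% in microglia, 14.5% and 14.1% in oligodendrocytes and 15.0% and 12.4% in neuroblasts, all above every lineage value. OPCs and microglia overlapped across libraries, with OPCs higher within each. Oligodendrocytes and neuroblasts overlapped too, and their order differed between libraries. Unannotated cells had 8.26% and 7.98%.

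A share can move because of the members or because of all other RNA. The median cell held 1029.5 and 1321 ribosomal protein UMIs in progenitors I, and 1019 and 1097 in mid deuterosomal cells. Total UMIs per median cell were 10490 and 13127.5 in progenitors I but 17984 and 20436 in mid deuterosomal cells. Ribosomal protein UMIs per cell thus overlapped across libraries while the share differed. Within each library mid deuterosomal cells held fewer than progenitors I, by little in replicate 1 and by more in replicate 2. MCCs held fewer still in both libraries, with medians of 782 and 956 at 13053 and 16747.5 total UMIs. Cycling progenitors held 1614.5 and 1907, more than non-cycling progenitors at nearly the same share. Neuroblasts had a high share but only 608 and 627 ribosomal protein UMIs in the median cell, since their cells were small in UMIs (4591 and 5581). Capture also sets UMIs per cell, and its part was not tested.

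**Figure D1:**
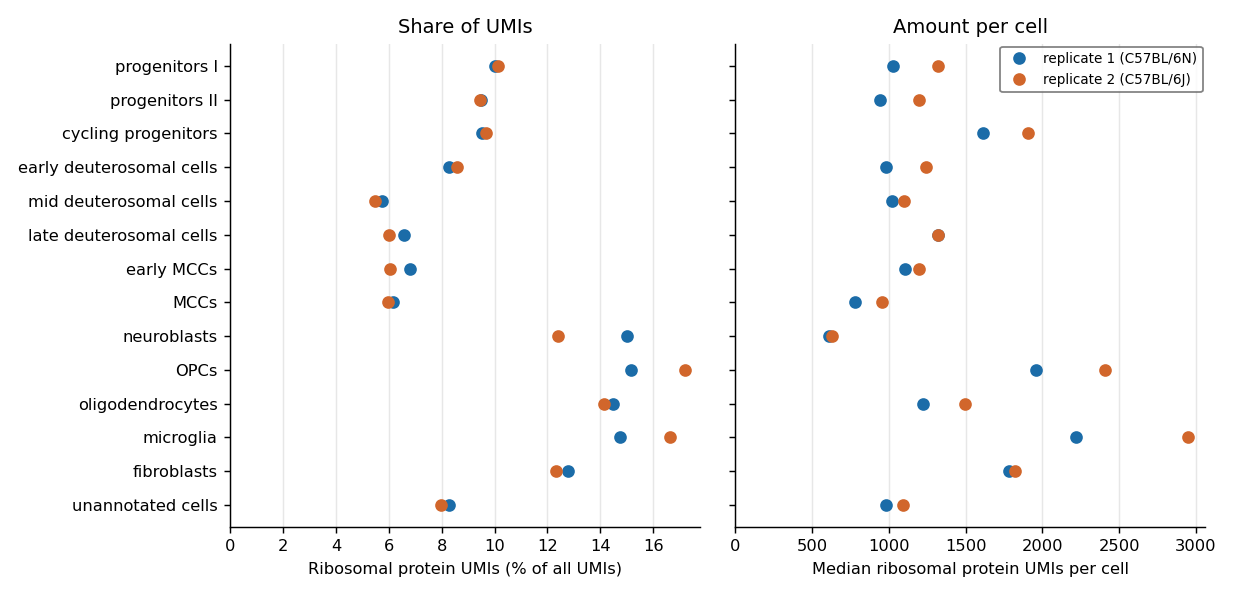
Ribosomal protein UMIs as a percentage of all UMIs (left) and as the median number per cell (right), by population; each point is 1 library. Mid deuterosomal cells have the lowest share, 5.74% and 5.46%, with a median of 1019 and 1097 UMIs per cell, against 1029.5 and 1321 in progenitors I.

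The 5 stages of the lineage, weighted equally, had 0.687 times the share of non-cycling progenitors in replicate 1 and 0.655 times in replicate 2, a mean of 0.671 ± 0.0225 (SD, n = 2). Among cells with 10000 to 20000 UMIs the ratio was 0.689 and 0.661, so that it was as low at matched depth. Cycling progenitors had 0.974 and 0.987 times the share of non-cycling progenitors, but 1.01 and 1.06 times among cells of matched depth, which turns the direction. MCCs had 1.07 and 1.09 times the share of mid deuterosomal cells. The ratio to non-cycling progenitors was 1.55 and 1.76 for OPCs, 1.51 and 1.70 for microglia, and 1.54 and 1.27 for neuroblasts.

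The cell cycle classes gave a lower share for S/G2 than for the others, with 6.84% and 6.73%, against 11.3% and 10.8% in G1. That order also carries the make-up of the classes, since 693 of 1400 S/G2 cells in replicate 1 and 292 of 582 in replicate 2 were mid deuterosomal. Within cycling progenitors the share was 10.6% and 10.9% in cells called G0, 9.80% and 10.2% in G1, 9.61% and 9.62% in S, and 8.89% and 9.02% in S/G2. The decline from G0 to S/G2 was therefore present within 1 population and in both libraries, while total UMIs per median cell were 14420 and 12911 in G0 and 20018.5 and 23092 in S/G2. The part of cell depth in it was not tested. S/G2 cells of the mid deuterosomal stage were lower still, at 5.63% and 5.36%.

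Both subunits took part. Rpl genes held 55.9% ± 0.730 (SD, n = 2) of ribosomal protein UMIs in progenitors I and 56.7% ± 1.28 in mid deuterosomal cells. Within replicate 1 the values were 56.4% and 57.6%, and within replicate 2 they were 55.3% and 55.8%, so both libraries moved the same way. Late deuterosomal cells, early MCCs and MCCs were also above progenitors I in both libraries. The difference was not tested. Microglia had the lowest mean, 54.0% ± 0.765.

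The question of which members follow the lineage was taken to the whole table. Counts were summed per library and population and fitted with edgeR's quasi-likelihood test over 15877 genes, with Benjamini-Hochberg adjustment at 0.05. The 5 lineage stages were compared with non-cycling progenitors. Of the 87 members tested, 81 fell and 3 rose. Over all genes 70.8% were called, 36% higher and 34.9% lower. The median log2 fold change was -0.60 for the members and 0.01 for all genes tested. The 3 not called were Rplp2 (log2 fold change -0.11), Rps19bp1 (0.02) and Rpl9-ps1 (-0.29, a copy with 126 UMIs in all). Without the library as a block 72 fell and 1 rose.

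The abundant members fell together. Rpl13 was at 2982 and 2981 CPM in progenitors I, 1632 and 1676 CPM in mid deuterosomal cells, and 1680 and 1699 CPM in MCCs. Its log2 fold change in the lineage was -0.63 (SE 0.0538, edgeR adjusted p 9.64e-11). Rplp0 went from 2533 and 2517 CPM in progenitors I to 1086 and 1178 CPM in mid deuterosomal cells, and its log2 fold change was -0.83. Rplp1, its partner in the stalk, had -0.87, Rpl23 -0.79 and Rps24 -0.71. For each of Rpl13, Rplp0 and Rplp1, every lineage sum was below every sum of non-cycling progenitors.

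The members that fell most came from both subunits. Rps12 was at 1136 and 1315 CPM in progenitors I, 323 and 430 CPM in mid deuterosomal cells, and 488 and 544 CPM in MCCs. Its log2 fold change was -1.16 (SE 0.0641, edgeR adjusted p 2.18e-14), which is 2.24-fold lower. Rpsa, a small subunit protein also known as the laminin receptor precursor, peaked in cycling progenitors at 2092 and 2084 CPM. It then dropped to 487 and 556 CPM in mid deuterosomal cells, and its log2 fold change in the lineage was -1.09. Rpl39 (-1.05), Rps28 (-1.03) and Rps4x (-1.03) were also among the lowest. Rps4x is the X-linked gene of a small subunit protein. Rpl10 had the lowest value of all, -1.34, but only 1005 UMIs, and all 50-base words of its transcript's last 500 bases are also found in other transcripts. Its levels were 5.90 and 5.32 CPM in progenitors I and 1.82 and 1.29 CPM in mid deuterosomal cells, and they are uncertain for that reason, as are those of its copy Rpl10-ps3 (-1.19). Shared words also made up 96.9% for Rps12, 90.7% for Rpl13 and 74.9% for Rps4x. They passed 50% in 40 of the 91 members, whose single levels carry the same limit. Without those 40 members the lineage had 0.684 and 0.656 times the ribosomal share of non-cycling progenitors.

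Rps27l, a paralog of Rps27 that is known as a target of p53, moved the other way. It was at 566 and 488 CPM in progenitors I, 592 and 520 CPM in progenitors II, and 684 and 629 CPM in cycling progenitors. It was at 760 and 700 CPM in early deuterosomal cells and 1422 and 1228 CPM in mid deuterosomal cells. It was then at 1062 and 943 CPM in late deuterosomal cells, 730 and 609 CPM in early MCCs, and 424 and 416 CPM in MCCs. Both libraries peaked in mid deuterosomal cells, and MCCs were below the progenitors, so the groups of the lineage comparison overlap. Its log2 fold change in the lineage was 0.49 (SE 0.0566, edgeR adjusted p 2.82e-08). In mid deuterosomal cells the level was 2.45 and 2.44 times that of non-cycling progenitors, the highest ratio of any member.

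Rpl36al, an autosomal paralog of the X-linked Rpl36a, had a similar course. It was at 359 and 335 CPM in progenitors I, 466 and 447 CPM in cycling progenitors, 587 and 496 CPM in mid deuterosomal cells, and 257 and 218 CPM in MCCs. Rps15, of the small subunit, was at 563 and 842.5 CPM in progenitors I, 828 and 1080 CPM in mid deuterosomal cells, and 447 and 646 CPM in MCCs. Both passed the test in the lineage with a log2 fold change of 0.17 (edgeR adjusted p 0.0251 for Rpl36al and 0.0126 for Rps15). Neither passed it without the library block or without the low count filter, and Rpl36al did not without the unannotated cells. Rplp2 differed from its stalk partners Rplp0 and Rplp1, with 667 and 430 CPM in progenitors I, 673 and 457 CPM in mid deuterosomal cells and 408 and 290 CPM in MCCs.

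**Figure D2:**
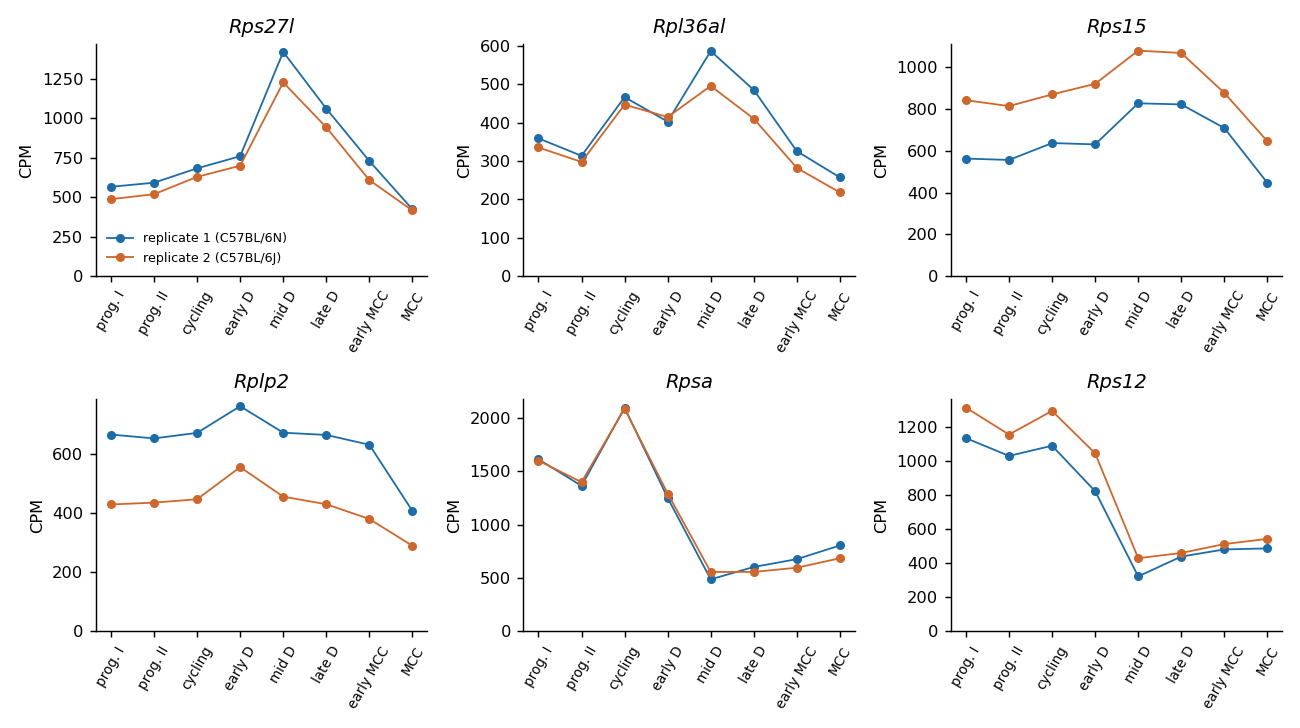
Levels of 6 members in CPM along the lineage, from progenitors I and II through the deuterosomal (D) stages to MCCs; each point is 1 library and lines join populations of a library. Rps27l, Rpl36al and Rps15 are highest in mid deuterosomal cells in both libraries, whereas Rpsa and Rps12 drop there.

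The stage of the extremes was counted over the 8 populations from progenitors I to MCCs. Among the 87 members, 54 were lowest in mid deuterosomal cells in both libraries, against 17.8% of all genes with at least 100 UMIs. A further 17 were lowest in MCCs (4.95% of all genes). The highest level was in progenitors I for 41 members (6.69% of all genes) and in cycling progenitors for 21 (13.2%). Only Rps27l, Rpl36al and Rps15 were highest in mid deuterosomal cells in both libraries (13.9% of all genes), a set noticed after the values were seen. Mid deuterosomal cells were below non-cycling progenitors in both libraries for 82 members (45.1% of all genes), with a median ratio of 0.579 and 0.557. The 5 others were Rps27l, Rpl36al, Rps15, Rps19bp1 and Rplp2. In MCCs all 87 tested members were below non-cycling progenitors in both libraries (41.8% of all genes), with ratios between 0.440 and 0.951.

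MCCs were compared with mid deuterosomal cells to ask what changes late. Here 24 members rose and 13 fell, against 29.2% and 29.9% of all genes (59.2% in either direction). Of the members, 27.6% rose and 14.9% fell. The split differed between settings. It was 39 and 7 with DESeq2, whose median over all genes was 0.20 in place of 0.02. It was 30 and 8 with library totals, and 5 and 7 without the library block. The cause of these differences was not tested. Rps27l had a log2 fold change of -1.75 (SE 0.0962, edgeR adjusted p 5.6e-14), which is 3.36-fold lower. Rpl36al had -1.28 (2.43-fold lower), Rps19bp1 -0.92, Rps15 -0.91, Rplp2 -0.79 and Rps13 -0.52. In each of these genes both MCC sums were below both mid deuterosomal sums. Among those that rose was Rps4x (0.68, edgeR adjusted p 5.36e-07). It went from 723 and 670 CPM in mid deuterosomal cells to 1253 and 1142 CPM in MCCs, still below 2183 and 2140 CPM in progenitors I. Rps2 (0.62), Rps28 (0.43), Rps16 (0.42) and Rpsa (0.42) also rose.

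Cycling progenitors differed little from non-cycling ones. Of the members, 19 fell and 4 rose, against 21.3% and 17.4% of all genes (38.6% in either direction), and the median was -0.07 against -0.10 for all genes. The counts were 11 and 5 with library totals, 24 and 24 when only the compared populations were fitted, and 2 and 1 without the library block. Rps19bp1 (0.46), Rpsa (0.43), Rpl36al (0.43) and Rps27l (0.22, edgeR adjusted p 0.0324) rose. Rpsa went from 1611 and 1598 CPM in progenitors I to 2092 and 2084 CPM in cycling progenitors. Rps27rt (-0.60) and Rps27 (-0.54), a gene and its copy, had the lowest values that passed, and Rpl7 (-0.48), Rps14 (-0.44), Rpl38 (-0.42) and Rpl37 (-0.33) also fell. Rps27 was at 50.8 and 16.4 CPM in cycling and 75.4 and 19.2 CPM in non-cycling progenitors, so that the libraries differed more than the populations.

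**Figure D3:**
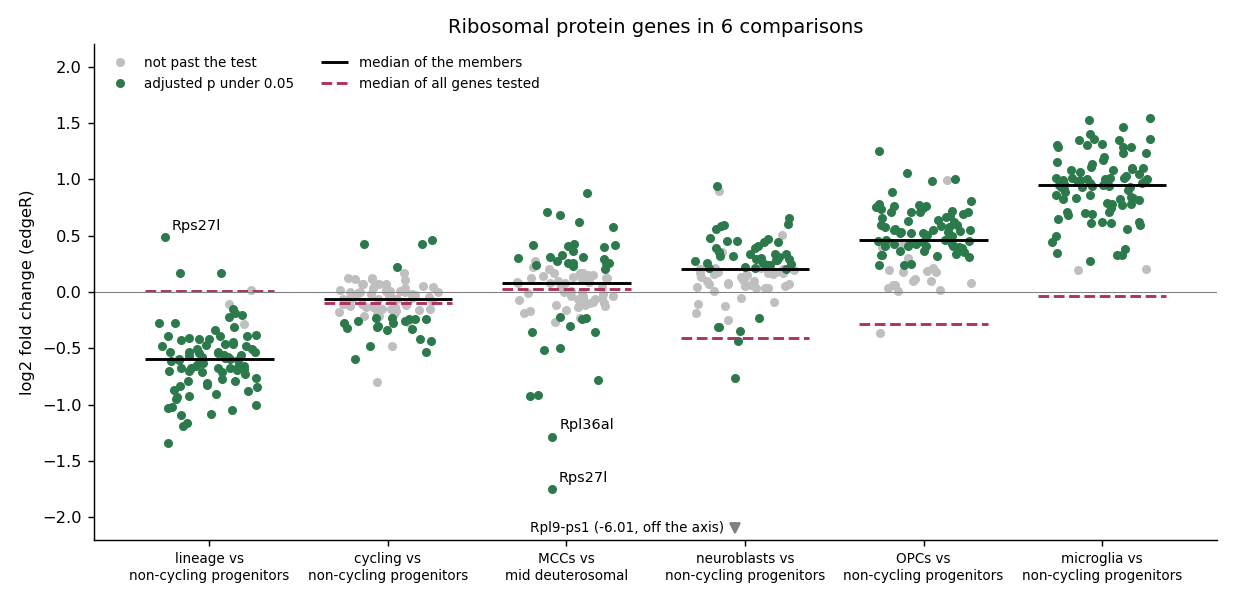
The log2 fold change (edgeR) of the 87 tested members in 6 comparisons, 1 point per gene, with the median of the members and of all genes tested; Rpl9-ps1 had 0 UMIs in neuroblasts and lies off the axis. The members' median is -0.60 in the lineage and 0.95 in microglia, and Rps27l is the highest point in the first column and the lowest in the third.

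The populations outside the lineage were compared with the same non-cycling progenitors, so these comparisons share their reference. In microglia 85 members rose and none fell (28% and 24.6% of all genes, 52.6% in either direction), with a median of 0.95. At an unadjusted p under 0.05, edgeR had 86 members higher and 0 lower, and DESeq2 called 86 higher and 0 lower after adjustment. With library totals 76 rose and the median was 0.67, while that of all genes went from -0.04 to -0.37. Rps29 was at 1564 and 1526 CPM in microglia, and its mean over non-cycling progenitors was 683 and 617 CPM, a log2 fold change of 1.54 (edgeR adjusted p 1.35e-14). Rps12 (1.53), Rpl36al (1.46), Rpl12 (1.40) and Rps19 (1.35) were also among the highest. Rpl12 differed between the libraries in microglia, with 1263 and 2404 CPM.

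In OPCs 68 members rose and none fell, against 17.2% and 23.6% of all genes (40.8% in either direction). The median was 0.46 for the members and -0.29 for all genes, or 0.70 and -0.06 with library totals. At an unadjusted p under 0.05, edgeR had 72 higher and 0 lower, and DESeq2 called 75 higher and 0 lower after adjustment. Among members whose mean log2 CPM reached 5, Rpsa led with 3194 and 4130 CPM against 1486 and 1497 CPM in non-cycling progenitors, a log2 fold change of 1.05. Rps26 (1.00), Rpl23a (0.98), Rps18 (0.80) and Rps28 (0.78) were also among the highest. OPCs expressed cycling markers (1822 and 3759 CPM, 5 genes summed), whose part in this was not tested.

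Neuroblasts were more mixed. With edgeR's default scaling 37 members rose and 6 fell, against 17.4% and 27.1% of all genes (44.4% in either direction), with a median of 0.20 against -0.41. DESeq2 gave 58 and 2, and library totals gave 71 and 1, with medians over all genes of -0.06 and -0.12. Without the library block 12 rose and 3 fell. Cycling markers summed to 1803 and 2702 CPM in neuroblasts and 48.6 and 44.8 CPM in progenitors I, and their part in this was not tested. Rps26 rose most, from 977 and 862 CPM in non-cycling progenitors to 2589 and 1820 CPM, a log2 fold change of 0.94 (edgeR adjusted p 3.25e-09). Rpl23a (0.60), Rps28 (0.58) and Rpl13a (0.56) were also among the highest. Of the 6 that fell, Rps2 (-0.77) also passed with DESeq2 and with library totals. It was at 535 and 684 CPM in neuroblasts and 682 and 1014 CPM in non-cycling progenitors. Rplp1 (-0.44), Rps16 (-0.35), Rpl41 (-0.31) and Rps27l (-0.31) were no longer called with library totals, and Rpl38 (-0.23) then turned to 0.07.

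Paralog use was read as the share of UMIs that 1 gene took within a pair. Both genes were members for 7 of the 9 pairs considered. Intervals are exact Clopper-Pearson 95% intervals and cover counting error only. Rpl22l1 and Rpl22, paralogs of a large subunit protein known from lymphocyte development, were nearly balanced. Rpl22l1 took 44.3% (43.8 to 44.8) and 46.4% (45.8 to 47.0) in progenitors I and 46.4% and 45.6% in mid deuterosomal cells. The lineage minus non-cycling progenitors came to 0.116 percentage points in replicate 1 and -3.00 in replicate 2. No direction held in this mean over stages, but single stages differed. Early deuterosomal cells had 50.1% and 50.1%, above progenitors I and above progenitors II (46.6% and 49.3%) within each library. Late deuterosomal cells had 42.7% and 43.1%, and early MCCs 41.1% and 40.9%, below progenitors I and II in both libraries. MCCs had 47.6% and 44.5%, above both in replicate 1 and below both in replicate 2. These stage differences were not tested. OPCs, with 55.0% (52.8 to 57.2) and 58.5% (55.7 to 61.3), and oligodendrocytes, with 55.4% and 53.4%, had the highest shares, and microglia the lowest, 33.1% (32.0 to 34.1) and 35.9% (33.4 to 38.4). In OPCs Rpl22l1 rose (0.70, edgeR adjusted p 2.94e-06), while Rpl22 had 0.12 (edgeR adjusted p 0.289). In microglia Rpl22 rose by 1.01 and Rpl22l1 by 0.27. Of the 50-base words in their last bases, 63.9% for Rpl22l1 and 0% for Rpl22 are shared with other transcripts. The split of this pair is therefore uncertain as well.

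Rpl36al was the more abundant gene of its pair with Rpl36a in every population of both libraries, and the share of Rpl36a varied within the lineage. Rpl36a took 39.8% and 26.2% in progenitors I, 31.0% and 19.6% in early deuterosomal cells, 19.6% and 12.1% in mid deuterosomal cells, and 33.2% and 19.2% in early MCCs. The libraries differed at every stage, but the dip in mid deuterosomal cells was present in both. Over the lineage the share was 10.1 percentage points below non-cycling progenitors on average, the values being -11.7 and -8.44. Rpl36a itself fell (-0.59, edgeR adjusted p 1.71e-09). Since 85.5% of 50-base words in the last bases of Rpl36a and 67.6% of those of Rpl36al are shared with other transcripts, the split of their reads is uncertain.

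Rps27 was the minor partner of Rps27l by UMIs, in every population of both libraries. It took 11.4% and 3.68% of the pair in progenitors I, 2.82% and 0.970% in mid deuterosomal cells, and 10.7% and 3.30% in MCCs. Shared words covered 63.1% of Rps27 but 16.0% of Rps27l, and a copy named Rps27rt is also a member, so the split of these reads is uncertain. Rpl7l1, a paralog of Rpl7, took 3.92% and 3.63% in progenitors I, 6.15% and 5.68% in mid deuterosomal cells, and 4.41% and 3.82% in MCCs. Its own level was at 68.8 and 67.2 CPM in progenitors I and 63.4 and 56.7 CPM in mid deuterosomal cells, while Rpl7 went from 1685 and 1781 CPM to 967 and 941 CPM. Rpl7l1 differed from the reference by -0.19 in the lineage (edgeR adjusted p 0.0195, not passed with DESeq2). Shared words covered 74.5% of Rpl7 but 1.33% of Rpl7l1, so the split of this pair is uncertain too.

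The tissue-restricted paralogs were near absent. Rpl3l, known from striated muscle, had 22 and 5 UMIs against 214565 and 81854 of Rpl3. Rpl10l, known from testis, had 13 and 3 UMIs. Rpl39l, also known from testis, had 19 and 11 UMIs in the libraries, of which 13 were in microglia of replicate 1 and 10 in mid deuterosomal cells of replicate 2. Neither of these populations had a UMI of it in the other library.

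**Figure D4:**
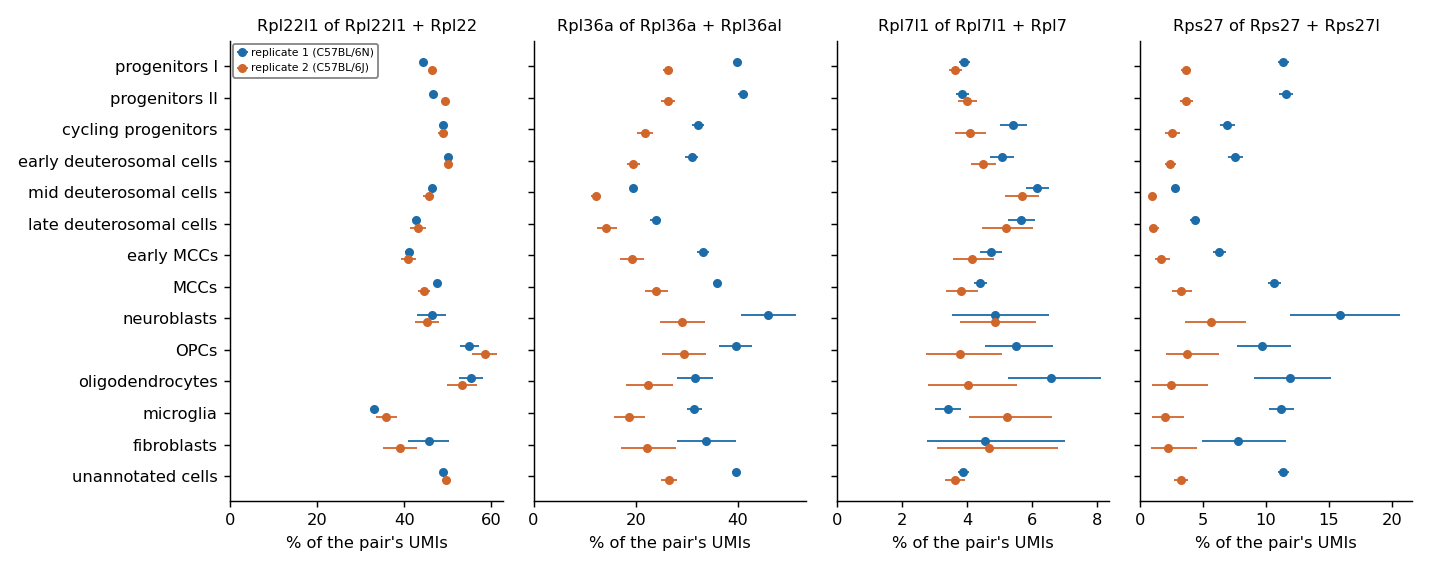
Share of a pair's UMIs taken by the named paralog, in percent, by population; points are libraries and bars exact Clopper-Pearson 95% intervals. Rpl22l1 is high in OPCs (55.0% and 58.5%) and lowest in microglia (33.1% and 35.9%), and Rpl36a and Rps27 dip in mid deuterosomal cells in both libraries.

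The libraries were compared per member over all their cells, with no test since each substrain is 1 library. Their make-up differed, with 2047 MCCs among 12028 cells in replicate 1 and 264 among 4373 in replicate 2. The part of this in the folds was not tested. Of the 87 members with at least 100 UMIs, 13 differed by over 1.5-fold, which is 14.9%, against 16.8% of all genes. The median fold between libraries was 1.09 for these members and 1.18 for all genes with at least 100 UMIs. Among genes with at least 10000 UMIs the shares were 12.3% of members and 6.03% of all genes. Rps27 was at 61.7 CPM in replicate 1 and 16.5 CPM in replicate 2, a 3.74-fold difference. Rpl9 was at 93.3 and 42.3 CPM, Rpl35 at 230.0 and 115 CPM, Rpl36a at 192 and 101 CPM, and Rpl29 at 420 and 269 CPM. In the other direction were Rpl9-ps1, Rpl36a-ps1 (4.89 and 12.1 CPM), Rps27rt, Rpl13a (701 and 1199 CPM), Rpl23a (310 and 510 CPM), Rpl21, Rps2 and Rpl5. For 12 of the 13, all 13 populations lay on the same side, which was not counted over all genes. Rps27 with Rps27rt, Rpl36a with Rpl36a-ps1, and Rpl9 with Rpl9-ps1 are each a gene and its copy that differed in opposite directions. The median share of words held in common with other transcripts was 65.0% for the 13 and 40.7% for the other 74. Cell Ranger 3 and 5.0.1 are named in the submitters' processing notes with no library attached, so version and substrain cannot be told apart.

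The genes that build and serve the ribosome did not all follow its proteins. Fau and Rack1, ribosomal proteins by other names, did: both fell in the lineage (-0.48 and -0.50) and both rose in microglia. Of 11 elongation factor genes, 8 fell and 2 rose in the lineage (34.9% and 36% of all genes), with a median of -0.64. Eef1b2, a subunit of the factor that recharges elongation factor 1, fell by 1.22 on the log2 scale (edgeR adjusted p 3.46e-15). The 2 that rose were Eif5a and Eef2k, the kinase that inhibits elongation factor 2. Eef1b2 was at 754 and 773 CPM in non-cycling progenitors and 358 and 349 CPM over the lineage.

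Ribosome biogenesis genes were high in cycling progenitors and in mid deuterosomal cells, where the ribosomal protein share was lowest. Of 51 such genes, 22 rose and 12 fell in the lineage (36% and 34.9% of all genes). In cycling progenitors 27 rose (17.4% of all genes), and 41 fell in MCCs against mid deuterosomal cells (29.9% of all genes). None fell in cycling progenitors by edgeR's adjusted test (1 at an unadjusted p under 0.05) and none rose in MCCs (0 unadjusted). DESeq2 was not run on these lists. The median in the last comparison was -0.64, against 0.02 for all genes. Their summed level was 3084 and 3276 CPM in progenitors I, 4440 and 4621 CPM in cycling progenitors, 4357 and 4431 CPM in mid deuterosomal cells, and 2838 and 2893 CPM in MCCs. Nop58, a core protein of the particles that methylate ribosomal RNA, was at 53.2 and 71.7 CPM in non-cycling progenitors and 139.5 and 185 CPM in cycling progenitors. It was at 261 and 327 CPM in mid deuterosomal cells and 47.7 and 52.0 CPM in MCCs, a log2 fold change of -2.63 between the last 2 (edgeR adjusted p 6.09e-17). Wdr12, needed for maturation of the large subunit, was at 124 and 103 CPM in mid deuterosomal cells and 16.6 and 14.0 CPM in MCCs.

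Of 29 genes of RNA polymerases I and III, which transcribe ribosomal and transfer RNA, 13 rose and 7 fell in the lineage (36% and 34.9% of all genes), and 3 rose and 15 fell in MCCs against mid deuterosomal cells (29.2% and 29.9%). Polr3k, a subunit of polymerase III, rose in the lineage (0.94). Of 36 initiation factor genes 12 rose and 16 fell in the lineage (36% and 34.9% of all genes), with Eif4ebp1 (-0.91), an inhibitor of initiation, and Eif3h (-0.90) the lowest. Of 18 genes that control ribosome production, 1 rose and 9 fell in the lineage, against 36% and 34.9% of all genes. The gene that rose was Larp1 (0.54), which binds the pyrimidine run of ribosomal protein mRNAs. Its level was 87.7 and 97.2 CPM in mid deuterosomal cells and 38.0 and 38.8 CPM in MCCs. Myc, a transcription factor known to drive ribosome genes, had -2.41 (edgeR adjusted p 1.66e-14), with 15.1 and 15.8 CPM in non-cycling progenitors and 0.797 and 0.776 CPM in mid deuterosomal cells. It rose by 2.96 from there to MCCs. The 78 mitochondrial ribosomal protein genes gave 43 higher and 13 lower in the lineage (36% and 34.9% of all genes), and 4 higher and 54 lower in MCCs against mid deuterosomal cells (29.2% and 29.9%). Their summed level was 8893 and 7743 CPM in progenitors I, 11510 and 10133 CPM in mid deuterosomal cells and 8544 and 7636 CPM in MCCs, highest where the cytosolic members were lowest.

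**Figure D5:**
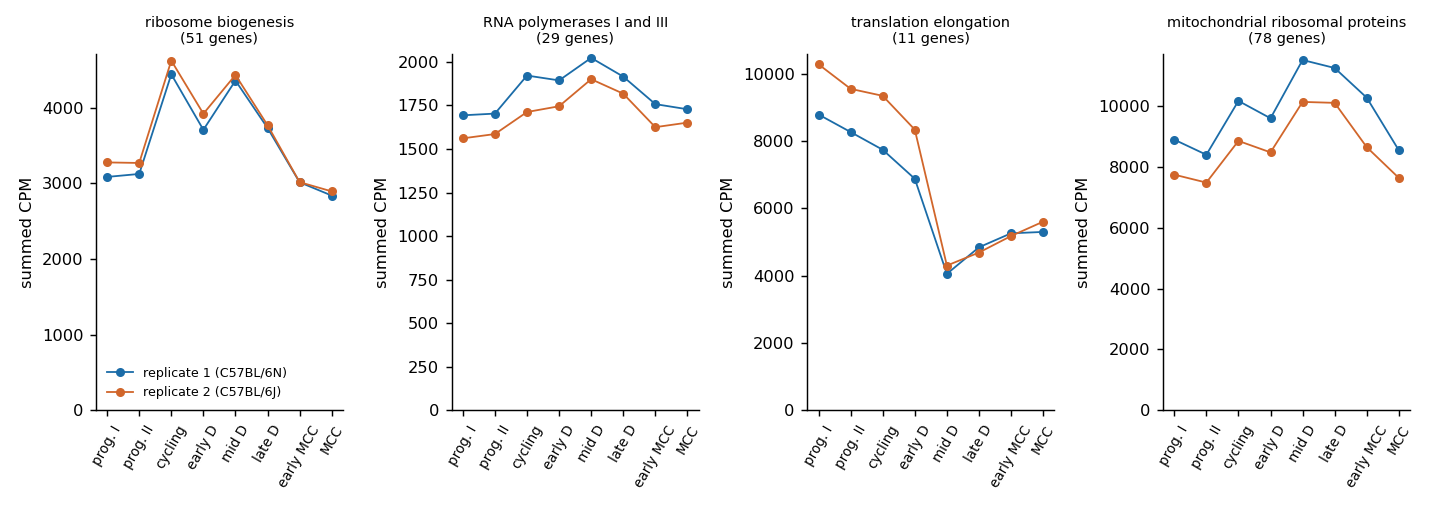
Summed CPM of 4 gene lists along the lineage, 1 point per library, with lines joining populations of a library. Ribosome biogenesis genes reach 4357 and 4431 CPM in mid deuterosomal cells and drop to 2838 and 2893 CPM in MCCs, whereas translation elongation genes are lowest in mid deuterosomal cells.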

How the data were processed

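Single cells were captured with a droplet 3′ kit, per the labels, and the authors deposited whole UMI counts per gene and cell with a cell table that names library, population and cell cycle class. The submitters' processing notes name Cell Ranger 3 and 5.0.1, and the build mm10. No doublet caller was run here and no cell was removed. Counts were summed per library and population, keeping the 13 populations with at least 20 cells in both libraries (fibroblasts were left out), which gave 26 sums. edgeR 4.0.16 (quasi-likelihood test, TMM, filterByExpr) in R 4.3.3 was fitted over 15877 genes with population and library as terms and 12 residual degrees of freedom, with Benjamini-Hochberg adjustment at 0.05. Each lineage or non-cycling value weights its populations equally. The library is a block because all sums of a library come from its cultures and run, and sums of a library deviated together (median correlation 0.184 over 78 pairs, lowest -0.00168). The fit was tested on simulated data, with 50 changed genes per fold drawn from all those tested. The simulated counts had no library difference, and populations differed only in the changed genes. The rates therefore describe genes of all levels in that simpler setting and not the members. Of genes changed 2-fold it recovered 82% in the lineage, 74% in cycling progenitors and 70% in MCCs against mid deuterosomal cells. The figures were 70% in microglia, 44% in OPCs and 20% in neuroblasts. Of genes changed 1.25-fold it recovered 50% in the lineage and between 2% and 10% in the other comparisons.

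Named members were the 5 with the most UMIs, the paralog pairs, members under 100 UMIs or that are no ribosomal proteins, and, per comparison, up to 6 with the highest and 6 with the lowest log2 fold change among those that passed with a mean log2 CPM of 5 or more. From each other list up to 2 in each direction were named. Others, such as those that differed between libraries, were chosen after their values were seen. A few genes that the rule names are not reported here. The members and gene lists were chosen with earlier results of these data known. Alternatives were DESeq2 1.42.0, library totals, TMM without the members, no filter, no block, other cell sets and single libraries. UMIs of a gene in a median cell are few, so levels rest on sums. Transcript words came from GENCODE M21 and promoters from RefSeq.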

Additional observations from a re-analysis of the deposited data

Results flagged for a closer look

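Rps27 in microglia against non-cycling progenitors differed in sign between the libraries, with a log2 difference of 0.77 in replicate 1 and -0.06 in replicate 2. The difference between libraries was not tested, and replicate 2 held 11 UMIs of Rps27 in microglia.

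The share of Rpl22l1 in its pair, lineage minus non-cycling progenitors, was 0.116 percentage points in replicate 1 and -3.00 in replicate 2, again with no test of the difference.

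Fibroblasts had too few cells for the fit. Ribosomal protein genes gave 12.8% of their UMIs in replicate 1 (18 cells) and 12.3% in replicate 2 (22 cells), above every stage of the multiciliated lineage.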

How the results depend on the processing

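Of the values that answer a comparison, 176 stayed within the limits set for them under the alternatives run, 30 moved and 2 turned direction. With DESeq2, MCCs against mid deuterosomal cells gave 39 members higher and 7 lower, and neuroblasts 58 and 2. With library totals, cycling progenitors had 11 lower, MCCs 8 lower, and neuroblasts 72 called, 71 higher and 1 lower. TMM without the members gave 12 lower in cycling progenitors. With no low count filter the lineage had 1 higher and neuroblasts 23 called, 17 higher. Without unannotated cells cycling progenitors had 11 lower and MCCs 8 lower. Fitting only the populations compared gave 48 called in cycling progenitors, 24 of them higher, and 58 higher in neuroblasts. The cause of these shifts was not tested.

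Without the replicate block the lineage had 1 member higher, cycling progenitors 3 called (1 higher, 2 lower), MCCs 12 (5 and 7) and neuroblasts 15 (12 and 3).

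Changes of direction were of small values. In MCCs against mid deuterosomal cells, Rpl26 was 0.056, Rpl36a 0.092 and Rpl13 0.11 with DESeq2, Rpl36a 0.016 and Rpl13 0.031 with library totals, and Rpl36a 0.029 and Rpl13 0.045 without unannotated cells. Rpl38 in neuroblasts was 0.070 with library totals. Rps19bp1 in the lineage was -0.0018 with TMM without the members, -0.027 with no filter, -0.012 without unannotated cells and -0.029 with only the populations compared.

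The share ratio of cycling progenitors was 1.04 among cells of 10000 to 20000 UMIs, and that of MCCs to mid deuterosomal cells 1.06. The latter was 1.05 without members that share sequence. Both settings were chosen after seeing the data. Leaving out 1 library gave -3.00 to 0.116 percentage points for Rpl22l1. With 1 library left no test could be run. Few cells limit the comparisons of OPCs (68 and 34 cells), neuroblasts (81 and 123) and microglia (289 and 43).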

Other observations

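Outside the lineage, many ribosome biogenesis genes exceeded their level in non-cycling progenitors. Of 51 genes, edgeR's quasi-likelihood test called 34 higher and 1 lower in OPCs (median log2 fold change 0.74), 35 and 2 in microglia (0.54), and 24 and 2 in neuroblasts (0.44). Of all genes, 17.2% were higher and 23.6% lower in OPCs, 28% and 24.6% in microglia, and 17.4% and 27.1% in neuroblasts. Of 78 mitochondrial ribosomal protein genes, 12 were higher and 17 lower in OPCs and 10 and 24 in neuroblasts, near those shares, and 16 and 9 in microglia. Of 36 initiation factor genes, 24 were higher and 4 lower in microglia. These comparisons share the non-cycling progenitors.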
